A study of Mus musculus with 4 samples.

Results

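Scavenger receptor RNA was examined in mouse bone-marrow-derived macrophages, which are primary macrophages grown from marrow cells in culture. The 10 genes were taken by symbol from a list of receptors of several structural classes (Msr1, Marco, Cd36, Scarb1, Scarb2, Cd163, Stab1, Mrc1, Olr1 and Cd68), out of 55536 genes in the tables. The series is a single group of 4 polyA-selected RNA-seq libraries (replicates 1 to 4) from C57BL/6J cells that carry no described genetic change. All 4 received lipid A, the membrane anchor of bacterial lipopolysaccharide, at 100 ng/ml for 12 h, were kept without it for a further 12 h and were taken at 0 min of a renewed stimulation. Some label fields call the agent lipoprotein A instead. The labels do not give sex or age, and the replicates are separate samples under 1 donor identifier, so p-values measure only the spread between these libraries. No untreated cells belong to the series, so no level below is an effect of lipid A.

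Scavenger receptors are surface or endosomal proteins that bind modified lipoproteins, microbes, dying cells and other polyanionic cargo and carry it to lysosomes. Class A receptors such as SR-A and MARCO are trimers with a collagen-like stalk, while class B receptors such as CD36 and SR-BI are anchored in the membrane at both ends and handle fatty acids and lipoprotein lipids. Macrophages carry members of several classes at once, and the mannose receptor and the haemoglobin receptor CD163 are widely used as markers of particular activation states.

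Gene counts added up to between 25594340 (replicate 1) and 57126810 (replicate 4). The libraries also differed in the share of counts from mitochondrial genes, which was 0.778% in replicate 1, 1.16% in replicate 2, 3.34% in replicate 3 and 3.00% in replicate 4. Replicates 1 and 2 were each made from 6 read files and replicates 3 and 4 from 4, per the notes deposited with the tables, and the sources used here do not say what lies behind that number. All 8 macrophage markers examined (such as Adgre1, which encodes F4/80, and Csf1r, the receptor for colony-stimulating factor 1) stood above 10 TPM, with a summed level of 11976 to 15657 TPM. TPM is an RNA level per transcript length, scaled to the same total in each library.

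By mean TPM over the 4 libraries, 8 of the 10 receptor genes lay above 10 TPM and 3 of them, Cd68, Marco and Msr1, above 100 TPM, a level that 1361 of the 55536 genes reached. The other 2 genes, Olr1 and Cd163, were below 1 TPM in every library. Cd68 ranked 31st of all genes, Marco 279th and Msr1 334th. The levels summed over all 10 genes were 3815, 3495, 5311 and 5636 TPM in replicates 1 to 4, of which Cd68 alone made up 60.7%, 71.2%, 75.4% and 79.9%. Without Cd68 the sums were 1499, 1008, 1308 and 1131 TPM, so the remaining 9 genes together were highest in replicate 1 and lowest in replicate 2. In bulk samples, fewer cells that express a receptor and less RNA per cell cannot be told apart.

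**Figure D1:**
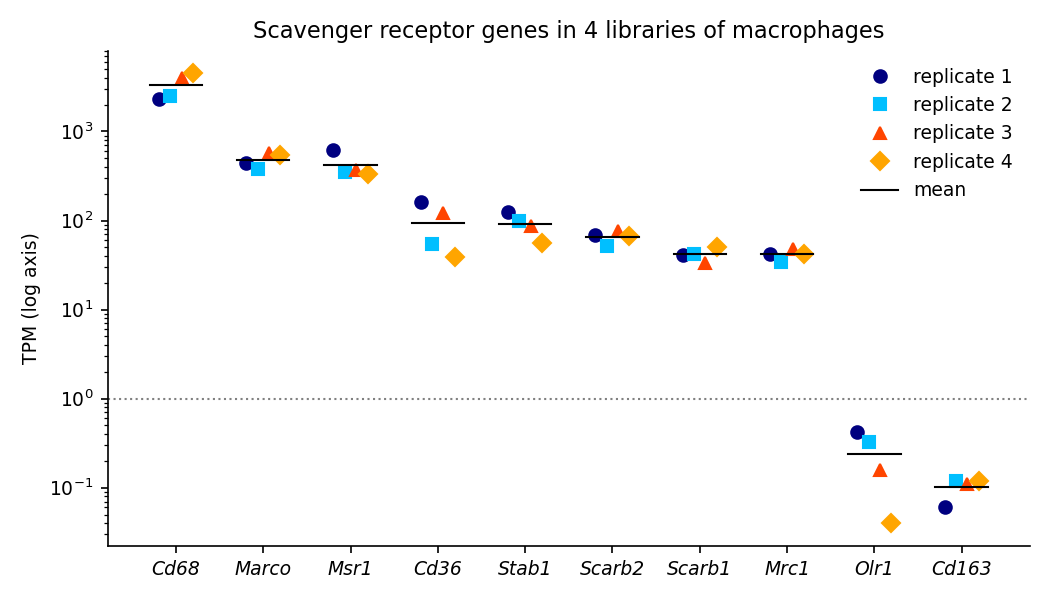
TPM of the 10 scavenger receptor genes on a log axis, in the order of their mean. Each symbol is 1 library, the black bar is the mean of the 4 libraries and the dotted line marks 1 TPM. Cd68 stands above all other members in each library, 5 genes lie between about 40 and 100 TPM on average, and Olr1 and Cd163 lie below the dotted line.

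The order was compared between neighbours as the log2 ratio of their TPM within each library, with 1 TPM added to both. Neighbours were taken from the mean TPM of these same 4 libraries, so the mean direction was largely set beforehand. Cd68 exceeded Marco in 4 of 4 libraries by a log2 ratio of 2.74 ± 0.27 (SD, n = 4). Msr1 exceeded Cd36 in all 4 by 2.32 ± 0.66, and Scarb2 exceeded Scarb1 in all 4 by 0.65 ± 0.39. Mrc1 exceeded Olr1 in all 4 by 5.11 ± 0.34, a ratio that depends on the added 1 TPM because Olr1 was so low. For these 4 pairs the exact two-sided sign-flip permutation test gave p = 0.13 (rounded), the smallest that 4 libraries allow, and an adjusted p of 0.281 over the 9 neighbouring pairs. The other 5 pairs did not keep 1 order across the libraries. The log2 ratio was 0.23 ± 0.55 for Marco over Msr1, -0.12 ± 0.65 for Cd36 over Stab1 and 0.42 ± 0.56 for Stab1 over Scarb2. Scarb1 and Mrc1 stood at nearly the same level, with a mean log2 ratio of -0.00 ± 0.36, and Olr1 over Cd163 gave 0.16 ± 0.23. For these 5 pairs the exact sign-flip permutation p ranged from 0.375 to 1.

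Msr1, on the minus strand at chr8:39581685-39642673 (mm10), encodes the class A receptor SR-A, which takes up acetylated and oxidised low-density lipoprotein (LDL) and binds bacterial surface lipids. Its level was 622 TPM in replicate 1, 350 in replicate 2, 373 in replicate 3 and 332 in replicate 4 (mean 419 ± 136 TPM, SD, n = 4). Replicate 1 was far above the other 3 libraries, which lay close together. The counts behind these levels were 20847, 14654, 25786 and 23194. These values are from the tables with the column layout of RSEM. The tables with the column layout of kallisto gave 566, 324, 401 and 377 TPM, where replicate 1 was again highest but the others lay less close together.

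The gene makes 2 full-length coding transcripts that differ at the end of the protein. Msr1-201 codes for 458 residues and is the type I form, whose last part is the scavenger receptor cysteine-rich domain. Msr1-202 codes for 354 residues and is the type II form, which lacks that domain. The transcripts share 1054 coding bases, after which Msr1-201 goes on for 320 bases of its own and Msr1-202 for 8 before a stop codon. The point where they part is printed 5′ to 3′ from the GENCODE M21 transcripts, because the level of each form rests on reads that reach past it. Lower case marks the last 30 shared bases (chr8:39608085-39608114, minus strand) and capitals mark what follows in each form, the first 130 own bases of Msr1-201 (chr8:39589349-39589478) and the end of the reading frame with its stop codon in Msr1-202 (chr8:39605972-39605982).
Msr1-201: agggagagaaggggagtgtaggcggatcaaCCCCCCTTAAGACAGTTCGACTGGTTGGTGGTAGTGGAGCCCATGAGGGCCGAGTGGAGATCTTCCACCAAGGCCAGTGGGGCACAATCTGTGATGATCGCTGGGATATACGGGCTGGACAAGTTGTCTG
Msr1-202: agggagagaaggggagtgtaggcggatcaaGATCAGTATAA

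In the tables with the column layout of RSEM, Msr1-201 had 164, 112, 151 and 159 TPM in replicates 1 to 4. Its level was thus similar in 3 libraries and lower in replicate 2. Msr1-202 had 290, 189, 161 and 109 TPM, which is more than Msr1-201 in replicates 1, 2 and 3 and less in replicate 4. The type I form therefore made up 36.2%, 37.1%, 48.4% and 59.4% of the 2 forms (45.3% ± 10.9, SD, n = 4). In the tables with the column layout of kallisto the same share was 49.6%, 49.2%, 52.3% and 64.3% (53.9% ± 7.09). Both quantifications put the highest type I share in replicate 4, but they differ on which form leads on average, Msr1-202 in the former and Msr1-201 in the latter. The annotated transcripts differ in length, at 1424 bases for Msr1-201 and 3636 for Msr1-202, and the annotated 3′ untranslated part is 47 and 2518 bases long, so the estimated split also rests on how complete these ends are in the annotation.

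A short non-coding model, Msr1-205, had 126, 32.1, 13.3 and 34.7 TPM in replicates 1 to 4. That is 20.2% of the gene's TPM in replicate 1 and between 3.56% and 10.5% in the others. Without non-coding models Msr1 had 490, 315, 358 and 295 TPM, so replicate 1 remained the highest library. On the scale of CPM, which are counts scaled to library size, here with TMM factors, and not divided by length, Msr1 had 916, 498, 521 and 394 CPM. The order of the libraries was the same on both scales.

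**Figure D2:**
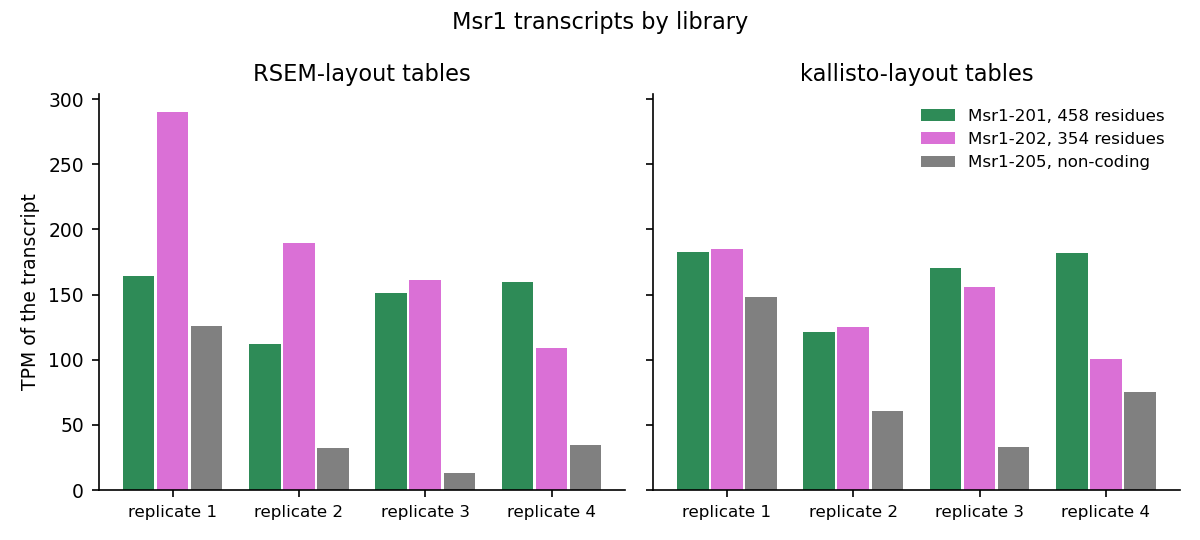
TPM of 3 Msr1 transcripts in replicates 1 to 4, from the RSEM-layout tables (left) and the kallisto-layout tables (right); each bar is 1 library. Msr1-202 is above Msr1-201 in replicates 1 to 3 on the left, and the forms are near parity in replicates 1 to 3 on the right, while Msr1-201 leads in replicate 4 in both.

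Marco (chr1:120474538-120505024, minus strand) encodes the other class A receptor of the list, which binds bacteria and inhaled particles. Marco had 441 TPM in replicate 1, 375 in replicate 2, 569 in replicate 3 and 543 in replicate 4 (mean 482 ± 90.3 TPM, SD, n = 4). Replicates 3 and 4 were above replicates 1 and 2 in TPM, but in TMM-normalised CPM (505, 361, 524 and 528) replicate 1 came within a few percent of them. Marco-202, an annotated fragment of 370 bases, held 9.15%, 9.12%, 22.6% and 16.0% of the gene's TPM in replicates 1 to 4 in the RSEM-layout tables and 4.64%, 2.99%, 4.55% and 1.42% in the kallisto-layout tables. The full transcript Marco-201, which codes for 518 residues, had 400, 341, 440 and 457 TPM in the former and 297, 258, 446 and 460 TPM in the latter, so it was higher in replicates 3 and 4 in both. It made up 85.8% ± 6.47 in the RSEM-layout tables and 96.6% ± 1.52 in the kallisto-layout tables.

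Among class B receptors, Cd36 was the most uneven of the 8 genes above 10 TPM. CD36 binds long-chain fatty acids and oxidised LDL and acts as a partner of Toll-like receptors 2 and 6. Cd36 (chr5:17781690-17888801, minus strand) had 161 TPM in replicate 1, 55.0 in replicate 2, 121 in replicate 3 and 39.0 in replicate 4 (mean 94.0 ± 57.2 TPM, SD, n = 4). Replicates 1 and 3 were high and replicates 2 and 4 low, with a 4.14-fold gap between the highest and the lowest library. The SD was 60.8% of the mean, above that of 92.5% of the 11435 genes with a mean of at least 1 TPM, whose median was 24.3%. Counts of 6756, 2497, 10269 and 3459 stand behind these levels, so counting error is small beside the gap. In TMM-normalised CPM the same pattern held, at 297, 84.9, 208 and 58.8.

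The 6 Cd36 transcripts begin at 3 places. The outermost group starts at chr5:17888747-17888801 (Cd36-203 and the fragment Cd36-205), the next at chr5:17849729-17849792 (Cd36-202 and Cd36-204) and the innermost, nearest to the coding part, at chr5:17835696-17835717 (Cd36-201 and Cd36-206). All full-length forms code for the same 472 residues. The outermost group made up 44.6%, 47.0%, 49.4% and 52.1% of Cd36 TPM in replicates 1 to 4 (48.3% ± 3.18). The innermost group made up 50.2%, 46.4%, 45.8% and 43.1% (46.4% ± 2.93), and the middle group 5.35% ± 0.84. With the fragment Cd36-205 counted, neither the outermost nor the innermost start made up less than 43.1% of Cd36 in any library in the RSEM-layout tables. The high and low libraries of Cd36 differed much more in total level than in the start used. The kallisto-layout tables gave 49.8% ± 5.52, 3.62% ± 0.965 and 46.6% ± 4.86 for the outermost, middle and innermost group. In those tables the outermost and innermost starts were within a few percentage points of each other in replicates 1 to 3, but stood at 57.9% and 39.3% in replicate 4. The outermost share in replicate 4 includes the 702-base fragment Cd36-205. That fragment held 14.7% of Cd36 there in the RSEM-layout tables, where it was at 0 in replicates 1 to 3, and 26.7% in the kallisto-layout tables. Cd36-203 alone held 37.4% and 31.2% in replicate 4, below the innermost group in both.

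Markers of other cells were read beside the Cd36 levels, since adipocytes, platelets, endothelium and other cells can carry this receptor. The 5 neutrophil markers summed to 83.8, 13.0, 68.7 and 6.22 TPM in replicates 1 to 4, high in the same libraries as Cd36. These sums came almost wholly from S100a9 (48.2, 8.36, 47.6 and 3.76 TPM) and S100a8 (34.8, 4.67, 20.7 and 2.31 TPM), calcium-binding proteins that myeloid cells other than neutrophils can also make. Mpo and Elane, which encode granule enzymes of immature neutrophils, did not exceed 0.48 TPM, and Ly6g was at 0 in all 4 libraries, which allows up to 0.117 CPM in the shallowest. The part of such cells in the Cd36 values was not tested. Of 4 adipocyte markers, 3 were at 0 in all libraries, and the list summed to 0.05 TPM at most. Platelet markers summed to 237, 265, 211 and 86.1 TPM, nearly all from the chemokine gene Pf4, while the platelet integrin and glycoprotein genes Itga2b and Gp9 did not exceed 0.39 TPM.

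**Figure D3:**
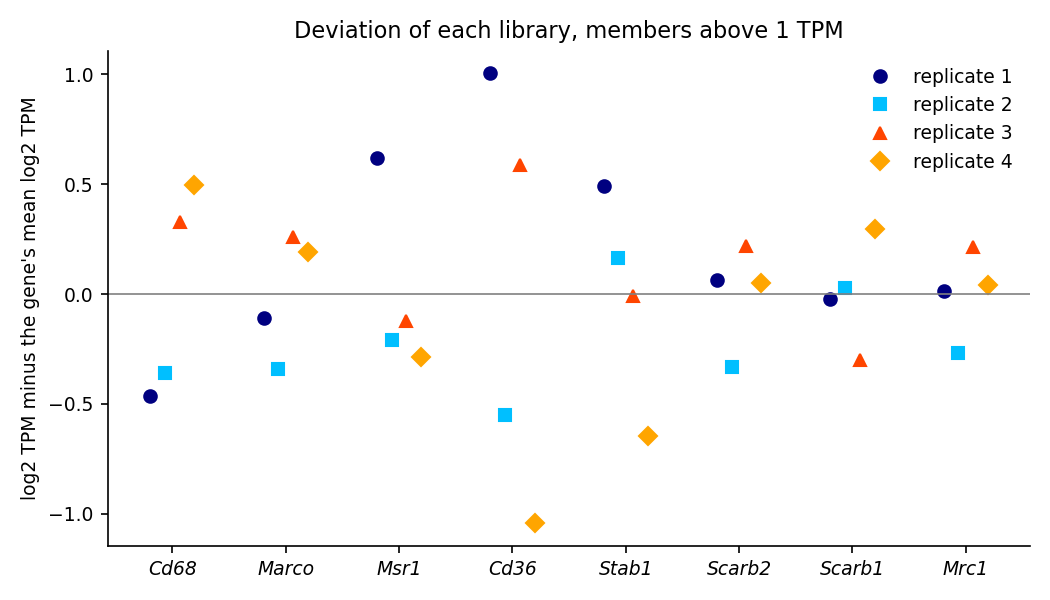
Each library's log2 TPM minus the mean log2 TPM of the gene, for the 8 members above 1 TPM; each symbol is 1 library. Cd36 spans more than any other member shown, with replicates 1 and 3 above and replicates 2 and 4 below its mean, and for Cd68 and Marco replicates 3 and 4 lie above replicates 1 and 2.

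Scarb1 (chr5:125277087-125341094, minus strand) encodes SR-BI, the receptor through which cells exchange cholesterol with high-density lipoprotein. Scarb1 had 40.6 TPM in replicate 1, 42.0 in replicate 2, 33.5 in replicate 3 and 50.6 in replicate 4 (mean 41.7 ± 7.03 TPM, SD, n = 4). In these RSEM-layout values replicate 3 was the lowest and replicate 4 the highest library. The SD of 16.9% of the mean was below the median of all expressed genes. The kallisto-layout tables gave 28.8, 30.3, 34.7 and 51.5 TPM (36.3 ± 10.4). There the spread was wider, with replicate 1 lowest and replicate 4 again highest. The 469-base non-coding model Scarb1-204 held 11.8% of Scarb1 in replicate 4 in the RSEM-layout tables and 14.2% in the kallisto-layout tables. Coding transcripts alone had 39.7, 40.3, 32.8 and 44.1 TPM in the former. They had 28.3, 29.3, 32.6 and 43.5 TPM in the latter, so replicate 4 stayed highest in both, by less.

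The 2 main Scarb1 transcripts also part near the end of the protein, which lies in the cytoplasm and contacts adaptor proteins. Scarb1-201 codes for the 509 residues of SR-BI and Scarb1-202 for the 506 residues of SR-BII, of which 467 are shared. The 2 ends are printed 5′ to 3′ from the GENCODE M21 transcripts to show how completely the tails differ. Lower case marks the last 30 shared bases (chr5:125283899-125283928, minus strand), and capitals mark the coding bases of each form alone with the stop codon (chr5:125281105-125281233 for Scarb1-201 and chr5:125277746-125277865 for Scarb1-202).
Scarb1-201: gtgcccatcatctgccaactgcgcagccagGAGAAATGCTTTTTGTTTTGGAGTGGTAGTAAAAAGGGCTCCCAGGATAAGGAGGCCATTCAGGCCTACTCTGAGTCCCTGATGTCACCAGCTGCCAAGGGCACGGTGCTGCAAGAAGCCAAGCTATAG
Scarb1-202: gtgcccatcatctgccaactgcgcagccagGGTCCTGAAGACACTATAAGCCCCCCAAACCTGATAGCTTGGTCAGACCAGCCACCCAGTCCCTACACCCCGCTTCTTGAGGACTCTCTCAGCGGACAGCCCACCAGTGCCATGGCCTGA

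Scarb1-202 made up 20.4%, 20.2%, 14.6% and 15.3% of the 2 forms in replicates 1 to 4 (17.6% ± 3.11, SD, n = 4), so the SR-BI tail was the main one in every library. In the kallisto-layout tables the share was 15.4% ± 1.59. Unlike the forms of Msr1, those of Scarb1 were ranked the same way by both quantifications. Pdzk1, the adaptor that binds the SR-BI tail in liver, was at 0.04 TPM in replicate 1 and at 0 in the others.

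Scarb2 and Cd68 encode proteins that sit mainly in late endosomes and lysosomes. Scarb2 (chr5:92441314-92506833, minus strand) encodes LIMP-2, a class B protein of the lysosomal membrane. Its level was 68.4 TPM in replicate 1, 52.1 in replicate 2, 76.2 in replicate 3 and 67.7 in replicate 4 (mean 66.1 ± 10.1 TPM, SD, n = 4). In these RSEM-layout values replicate 2 was the lowest, and the other 3 lay close together. One transcript, Scarb2-201, held 99.8% ± 0.19 of Scarb2 TPM there. The kallisto-layout tables gave Scarb2 48.8, 37.7, 76.7 and 68.2 TPM, so that replicate 1 also stood below replicates 3 and 4.

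Cd68 (chr11:69664213-69666153, minus strand) encodes macrosialin, a heavily glycosylated relative of the LAMP proteins that binds oxidised LDL and serves as a common macrophage marker. Cd68 had 2316 TPM in replicate 1, 2487 in replicate 2, 4004 in replicate 3 and 4504 in replicate 4 (mean 3328 ± 1091 TPM, SD, n = 4). Replicates 3 and 4 were both above replicates 1 and 2 without overlap. Cd68-201 held 98.5% ± 0.78 of its TPM, so this gap did not arise in a minor transcript. TMM-normalised counts gave the same picture, at 1671, 1505, 2700 and 2979 CPM.

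Stab1 and Mrc1 encode large endocytic receptors. Stabilin-1 takes up acetylated LDL and the matrix protein SPARC and is found on sinusoidal endothelium and on some macrophages. Stab1 (chr14:31139013-31168641, minus strand) had 123 TPM in replicate 1, 98.4 in replicate 2, 87.3 in replicate 3 and 56.0 in replicate 4 (mean 91.3 ± 28.0 TPM, SD, n = 4). In these RSEM-layout values replicates 1 and 2 were above replicates 3 and 4. The kallisto-layout tables gave 77.2, 63.7, 83.3 and 56.6 TPM, with replicate 3 highest. The pairs also overlapped in TMM-normalised CPM (352, 221, 230 and 150), where replicate 3 was just above replicate 2. The 7 endothelial markers summed to 27.2, 51.9, 48.0 and 54.0 TPM. They were lowest in replicate 1, the library with the highest Stab1 in the RSEM-layout tables but not in the kallisto-layout tables. The highest values were 32.6 TPM for Stab2, which is also a scavenger receptor gene, 30.2 for Kdr, 12.2 for Vwf, 5.09 for Pecam1 and 3.54 for Cdh5, while Tek did not exceed 0.01 TPM and Lyve1 did not exceed 0.1 TPM. The part of such cells in the Stab1 values was not tested.

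Most Stab1 TPM was assigned to transcript models that do not code for the whole protein. Stab1-201, with 69 exons and 2571 residues, held 30.7% ± 2.11 of the gene's TPM (SD, n = 4) in the RSEM-layout tables and 42.2% ± 2.52 in the kallisto-layout tables. The 9 models of the type retained intron held 61.4%, 63.3%, 68.6% and 66.3% in replicates 1 to 4 (64.9% ± 3.22), and 54.6% ± 1.09 in the kallisto-layout tables. Retained-intron models are annotated transcripts that keep an intron; most of these are much shorter than Stab1-201, and a short model reaches a high TPM with few reads. The whole-gene TPM of Stab1 thus counts many pieces, whereas Stab1-201 alone had 41.4, 29.6, 24.9 and 17.1 TPM. In these RSEM-layout values the libraries stood in the same order as for the whole gene. The kallisto-layout tables gave Stab1-201 35.0, 27.4, 33.6 and 22.6 TPM, with replicate 1 highest, whereas replicate 3 was highest for the whole gene there. The last 112 bases of Stab1 overlap Nt5dc2 on the opposite strand, a gene at 20.0 to 22.1 TPM, and the sources used here do not say whether the counting used strand.

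**Figure D4:**
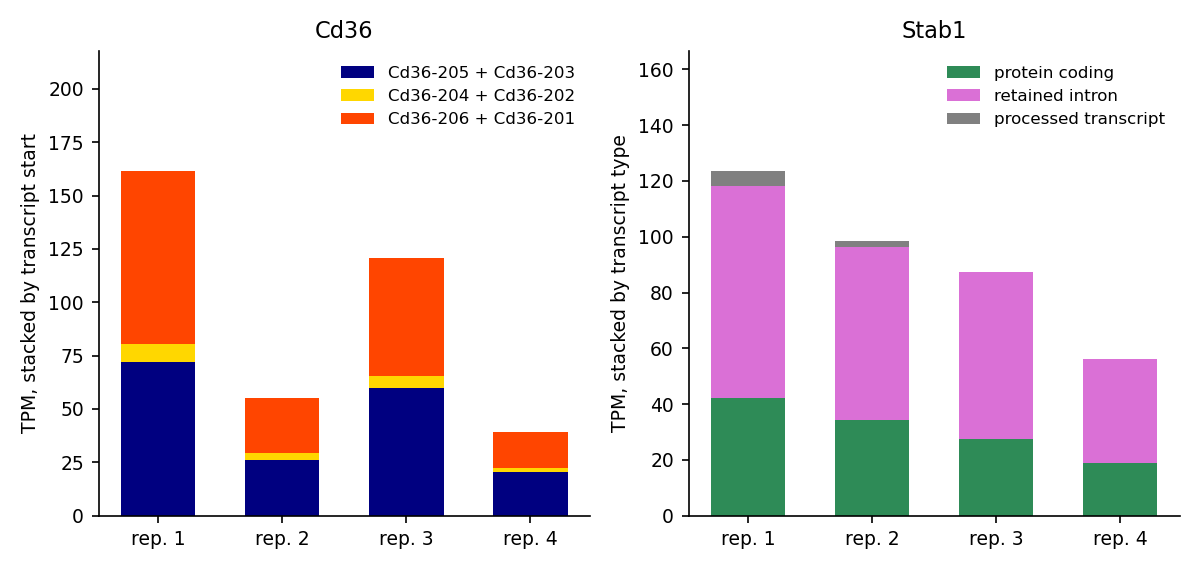
TPM of Cd36 stacked by the start of its transcripts (left) and of Stab1 stacked by transcript type (right), from the RSEM-layout tables; each bar is 1 library. Cd36 bars change in height between libraries while the outermost and innermost starts each keep between 43.1% and 52.1%, and retained-intron models make up the larger part of each Stab1 bar.

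Mrc1 (chr2:14229392-14332057, plus strand) encodes the mannose receptor CD206, which takes up glycoproteins with exposed mannose and rises with alternative activation of macrophages. Mrc1 had 41.7 TPM in replicate 1, 34.3 in replicate 2, 47.9 in replicate 3 and 42.5 in replicate 4 (mean 41.6 ± 5.57 TPM, SD, n = 4). In these RSEM-layout values its SD of 13.4% of the mean was the smallest among the members. The full transcript Mrc1-201 held 91.5% ± 6.87 of the TPM there, and the rest was a retained-intron model that reached 18.2% in replicate 3. The kallisto-layout tables gave Mrc1 35.3 ± 8.71 TPM, a wider spread relative to the mean than that of Stab1 (70.2 ± 12.2 TPM). Mrc1-201 had 40.9, 32.0, 39.2 and 39.3 TPM in the RSEM-layout tables, with replicate 1 highest. It had 29.9, 24.9, 42.2 and 40.5 TPM in the kallisto-layout tables, with replicates 3 and 4 above replicates 1 and 2. In TMM-normalised CPM (158, 106, 151 and 142) replicate 1 was the highest library for Mrc1.

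Cd163 and Olr1 were close to the detection limit. CD163 clears haptoglobin-haemoglobin complexes, and Cd163 (chr6:124304656-124330527, plus strand) had 0.06, 0.12, 0.11 and 0.12 TPM, from 4, 9, 13 and 18 counts. The kallisto-layout tables gave it 0.314, 0.259, 0.342 and 0.352 TPM, which is higher but still below 1 TPM in every library. Olr1 (chr6:129485244-129507165, minus strand) encodes LOX-1, a lectin-like receptor for oxidised LDL. It had 0.42, 0.33, 0.16 and 0.04 TPM, from 24, 20, 18 and 5 counts, and was thus lowest in the most deeply sequenced library.

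The 2 quantifications also differed in level. For Cd68, Scarb1, Scarb2, Mrc1 and Marco the kallisto-layout TPM was 0.707 to 0.750 times the RSEM-layout TPM in replicates 1 and 2 and 0.821 to 1.04 times in replicates 3 and 4. For Msr1 the ratios were 0.909, 0.925, 1.08 and 1.14, for Cd36 0.805, 0.798, 1.05 and 1.20, and for Stab1 0.625, 0.648, 0.955 and 1.01. Differences between replicates 1 and 2 and replicates 3 and 4 on the TPM scale therefore depended on the table used.

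The only recorded difference that divides the libraries is the number of read files, so replicates 3 and 4 were compared with replicates 1 and 2 as libraries, not as conditions. edgeR's quasi-likelihood test with Benjamini-Hochberg adjustment, fitted over 11991 genes, called 0 of the 8 receptor genes that passed the filter on low counts, where 5.8% of all genes were called (2.08% as higher and 3.72% as lower in replicates 3 and 4). At an unadjusted p under 0.05 it picked 1 of 8, against 28.5% of all genes, and DESeq2 called 1 of 8, against 15.6%. The gene in both cases was Cd68. The RSEM-layout TPM of the pairs of libraries did not overlap for 4 of the 8 (Cd68, Marco, Mrc1 and Stab1), against 56.5% of all genes tested. In TMM-normalised CPM the pairs overlapped for Mrc1 and Stab1. The receptors thus stood near the background or below it on each count. Their median log2 fold change (replicates 3 and 4 over 1 and 2) was 0.05, with 4 genes positive and 4 negative, and the median over all genes was -0.01.

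Cd68 had the largest difference, a log2 fold change of 0.84 (SE 0.23) with an adjusted p of 0.0807 by edgeR, which missed the threshold of 0.05. DESeq2 gave 0.84 (SE 0.19, adjusted p = 3.85e-04), and edgeR without the filter on low counts gave 0.89 (adjusted p = 0.0413). Without that filter edgeR called 2569 of 22006 genes. Depth, the mitochondrial share and the number of read files divide the libraries in the same way and cannot be told apart. Msr1 and Stab1 were lower in replicates 3 and 4 by estimates of -0.63 (SE 0.34) and -0.59 (SE 0.31), with adjusted p of 0.280 and 0.272 by edgeR. Without replicate 1 the Msr1 estimate was -0.11 (SE 0.24) and that of Stab1 -0.20 (SE 0.29), and without replicate 2 they were -1.001 (SE 0.23) and -0.89 (SE 0.28). Without replicate 3 they were -0.83 and -0.92, and without replicate 4 -0.44 and -0.31, so the sizes depended on which library was left out, while the sign did not.

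For Cd36 the estimate was -0.52 with an SE of 0.75 (adjusted p = 0.681 by edgeR), because each pair held a high and a low library, and it turned to 0.66 without replicate 1. Marco (0.28, SE 0.23), Scarb2 (0.25, SE 0.25), Mrc1 (0.15, SE 0.22) and Scarb1 (-0.04, SE 0.19) had adjusted p between 0.459 and 0.900 by edgeR. The Marco estimate was 0.56 without replicate 1 and 0.06 without replicate 2. Without replicate 2 the estimates of Scarb2 and Mrc1 were -0.04 and -0.11. Olr1 and Cd163 did not pass the filter. With no filter, where 2569 of 22006 genes were called, Olr1 had a log2 fold change of -1.91 (SE 0.64, adjusted p = 0.0277 by edgeR). Its counts were as low as 5, in replicate 4.

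**Figure D5:**
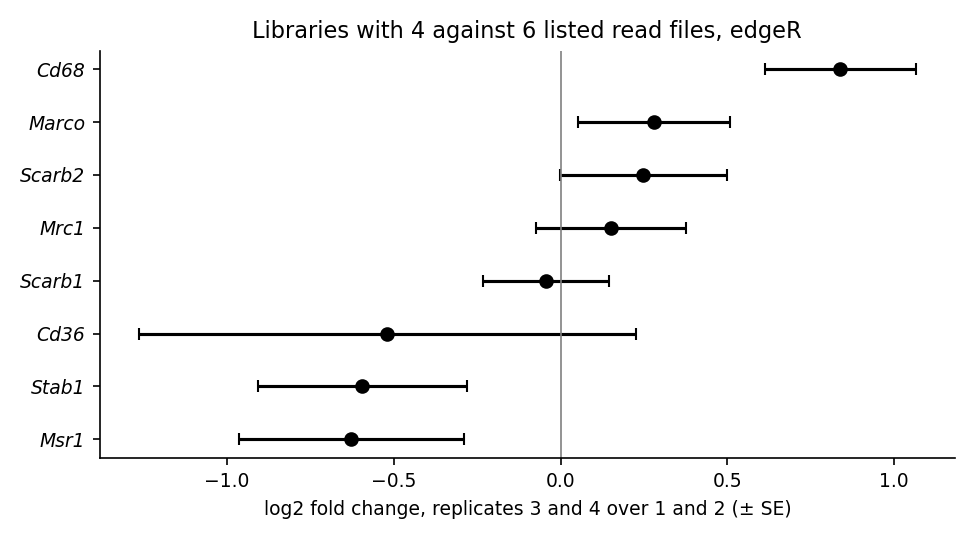
log2 fold change of the 8 members tested, replicates 3 and 4 over replicates 1 and 2, from edgeR's quasi-likelihood fit over all genes; bars are 1 SE on either side. Cd68 lies highest at 0.84, Cd36 has the widest bar, and Stab1 and Msr1 lie lowest; no member passed an adjusted p of 0.05.

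The genes around these receptors were read from 6 lists. The counts of calls given for them stand beside the 5.8% of all 11991 genes that edgeR called, so lists this short allow few calls. Of 14 other scavenger and endocytic receptors, 6 had at least 10 TPM on average, led by Cxcl16, a membrane chemokine that binds oxidised LDL (207 ± 33.7 TPM, SD, n = 4), and Lrp1, an endocytic receptor for lipoproteins and proteases (195 ± 25.7 TPM). Both were below Marco and Msr1. The class A relatives Scara3 and Scara5 were at 0 in all 4 libraries. Stab2, the closest relative of Stab1, had 10.4, 5.94, 32.6 and 21.7 TPM, with replicates 3 and 4 above replicates 1 and 2. It was named after its values were seen. Of the 8 tested in this list, edgeR called 0 in either direction, with a median log2 fold change of -0.38.

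All 13 genes of lipid uptake, storage and export exceeded 10 TPM, and edgeR called 0 of 13, with a median log2 fold change of 0.23. Apoe, the lipoprotein component that carries cholesterol out of macrophages, had 6280, 3497, 11215 and 5005 TPM, and Fabp5, a fatty acid carrier, had 3829 ± 773 TPM. Apoe was higher in replicates 1 and 3 than in replicates 2 and 4, as Cd36 was. Of the genes chosen after their values were seen, Lpl, a lipase that frees fatty acids from lipoproteins, had 341, 162, 288 and 198 TPM, and the lipid-droplet coat gene Plin2 had 996, 533, 669 and 460 TPM. Both were high in the same libraries as Cd36. Acsl1, which activates long-chain fatty acids, went the other way, with 61.5, 140, 48.1 and 88.7 TPM, and so did Cd9, a tetraspanin that associates with CD36 (16.4, 45.0, 13.7 and 37.5 TPM). These side-by-side values come from 4 libraries and were not tested.

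Of 8 genes of haemoglobin and haem handling, 7 exceeded 10 TPM, while the haemoglobin receptor gene Cd163 was below 1 TPM. The ferritin chains Fth1 (54786 ± 16251 TPM) and Ftl1 (15939 ± 6884 TPM) led the list, and Hmox1, which breaks down haem, had 464 ± 72.5 TPM. edgeR called 0 of the 8, with a median log2 fold change of -0.49. Of 11 regulators known to act on scavenger receptor genes, 9 exceeded 10 TPM, led by Spi1, which encodes the macrophage factor PU.1 (462 ± 87.2 TPM), and Maf (178 ± 26.8 TPM). Among these 11, edgeR called Cebpb alone, against 5.8% of all genes. Cebpb had 80.3, 93.7, 22.5 and 19.2 TPM in replicates 1 to 4, a log2 fold change of -2.05 (SE 0.16, adjusted p = 0.0166). With replicate 3 or replicate 4 left out, edgeR called 0 genes in all, so this call was lost. Cebpb encodes an inducible factor of inflammatory and alternatively activated macrophages. The median log2 fold change of this list was -0.17. Pparg, a lipid-activated receptor known to raise Cd36, had 12.5, 7.92, 16.7 and 13.4 TPM, with replicate 2 lowest.

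Of 12 receptor partners, signalling and shedding genes, 11 exceeded 10 TPM, led by the Fc receptor chain Fcer1g (3572 ± 765 TPM) and the kinase Lyn (224 ± 74.4 TPM). edgeR called 0 of the 11 tested, with a median log2 fold change of -0.04. The lysosomal list held Lamp1 (2372 ± 793 TPM) and the protease Ctsd (7654 ± 1112 TPM) as its most abundant genes, and edgeR called 0 of 5 tested, with a median log2 fold change of 0.10. Lamp1, with 1600, 1941, 2536 and 3411 TPM, was higher in replicates 3 and 4, as was Cd68, but its edgeR adjusted p was 0.12. Dendritic cell markers summed to 2.12 to 5.08 TPM and fibroblast markers to 0.74 TPM at most.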

How the data were processed

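PolyA-selected RNA of 4 libraries in 1 group was measured. Per the file headers, the deposited gene and transcript tables hold expected counts, which carry no normalization, and TPM scaled within each library, in the column layout of RSEM; further transcript tables hold estimated counts and TPM in the layout of kallisto. Per the deposited notes, the authors used mm10 and GENCODE M21. Neither the quantification programs nor their strand setting and versions are stated in the sources used here.

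Genes were joined by identifier, leaving out 26345 rows of no gene (at most 0.128% of counts); 86 genes are absent from the kallisto-layout tables. Expected counts were rounded and tested in R 4.3.3 with the quasi-likelihood test of edgeR 4.0.16, after TMM scaling and the filterByExpr filter (10 counts), at a Benjamini-Hochberg threshold of 0.05; this test was also run on simulated counts with known changes. DESeq2 1.42.0 and limma 3.58.1 were alternatives, with RLE factors, no filter, GC and length offsets, kallisto-layout counts and leaving out each library. A count of 3, the most that a count of 0 allows, is 0.117, 0.110, 0.0614 and 0.0525 CPM in replicates 1 to 4, which covers counting error only. Neighbours in TPM order were tested by exact sign-flip permutation of log2 ratios with a pseudocount of 1. Tables used numpy 2.4.6 and pandas 2.3.3 in Python 3.11.15, figures matplotlib 3.10.9 and tests scipy 1.17.1. Sequences are those of the GENCODE M21 transcripts.

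The members and the lists were chosen with earlier results of these data known. Named genes are the 10 members and, from each of the 6 lists, those called and the 2 of highest mean TPM; others were named after their values were seen. One listed name, Limp2, has no row, since it is an older name of Scarb2.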

Additional observations from a re-analysis of the deposited data

Results flagged for a closer look

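Of 20 sets of 4 library values examined for a single library far from the rest, 2 stood out, and chance gives about 1 in 20. In the RSEM-layout tables the TPM of Msr1 was far higher in replicate 1 than elsewhere. Its gap to the nearest library was 0.860 of the whole range (622 against 373 TPM, with the lowest at 332). Replicate 1 also had the highest share of the short model Msr1-205, 20.2% of the gene, and the part of that model in the gap was not tested beyond the coding transcripts, which gave 490 against 358 TPM. In the kallisto-layout tables the gap in Msr1 was a smaller part of the range (566 against 401 TPM, with the lowest at 324). The RSEM-layout TPM of Cd163 was lowest in replicate 1, with a gap of 0.833 of the range (0.06 against 0.11 TPM), but only 4 counts stand behind that value. In the kallisto-layout tables replicate 2 was lowest for Cd163, at 0.259 TPM against 0.314 in replicate 1.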

How the results depend on the processing

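The number of genes called by edgeR between the pairs of libraries was 696 (250 higher and 446 lower in replicates 3 and 4), 1866 with DESeq2 and 2569 with no filter on low counts, and it ranged from 0 (without replicate 3 or replicate 4) to 671 when 1 library was left out, with 177 without replicate 1. The split was 276 higher and 348 lower with GC and length offsets and 401 and 420 with limma on log2(TPM + 1). Of the 8 receptor genes tested, 0 were called, against 5.8% of all genes. DESeq2 called 1 of 8 (Cd68, 0.84), against 15.6% of all genes. With no filter edgeR called 2 of 10 (Cd68, 0.89, and Olr1), against 2569 of 22006 genes. The cause was not tested. Of 80 alternative fold changes of receptors, 71 kept their direction and side of the threshold, 2 passed it and 7 changed sign: Scarb1 was 0.0073 with no filter and ranged from -0.25 to 0.15 when 1 library was left out, Cd36 from -1.68 to 0.66, Scarb2 from -0.037 to 0.62 and Mrc1 from -0.11 to 0.48. The signs turned for Scarb1 without replicate 1 (0.07) or 3, for Cd36 without replicate 1 or 4 (0.13), and for Scarb2 and Mrc1 without replicate 2. Of 79 alternative ratios of neighbours, 70 kept their sign. With kallisto-layout TPM, Marco over Msr1 was -0.15, Cd36 over Stab1 0.14, Scarb1 over Mrc1 0.033 and Olr1 over Cd163 -0.070, and with CPM Marco over Msr1 was -0.22. With 1 library left out, Scarb1 over Mrc1 ranged from -0.098 to 0.16 and Cd36 over Stab1 from -0.32 to 0.11. Between 4 and 6 of 9 pairs kept 1 sign, against 4 of 9. With only members of at least 1 TPM in every library, 3 of 7 pairs did. The main transcript was the same for 9 of 10 receptors with kallisto-layout TPM and for all 10 under the other alternatives. No paired analysis was possible because the series has 1 group. Depth limits Cd163 and Olr1, whose RSEM-layout transcript shares rest on at most 24 counts.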
